A study of Rattus norvegicus with 12 samples.

Results

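The proteins that sit on the surface of the fat cell's lipid droplet were followed here through their mRNAs: the perilipins Plin1, Plin2, Plin4 and Plin5, the CIDE proteins Cidea, Cideb and Cidec, the seipin gene Bscl2, the droplet enzyme Hsd17b13 and the lipase inhibitor G0s2. The array files named 8 probes of 7 of these 10 genes by their listed symbols. Plin1 and Plin2 stood in the files under their older names, Plin and Adfp, and these 2 probes were added through a RefSeq synonym and a RefSeq accession, which gave 10 probes of 9 genes among 30367 probes with 26481 gene names or transcript IDs on the array. No probe was found for Plin4 by symbol, synonym or accession, and its mRNA was not analysed here. Epididymal adipocytes of 6 male Fisher 344 rats after 35 days of chronic unpredictable stress (CUS, 2 changing stressors each day) were compared with those of 6 male Fisher 344 rats caged without stress (control), all about 12 weeks old when bought, with 1 Agilent one-colour array for each rat. The stressors included nights without food or water. The adipocytes of both groups were freed from the epididymal fat pad with collagenase, a step that can leave other cells in the preparation, and 1 text of the labels calls the same cells preadipocytes. All CUS arrays shared 1 slide and all control arrays shared a second one, and an effect of the slide cannot be told apart from an effect of stress.

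An adipocyte keeps its triglyceride in a droplet bounded by a single layer of phospholipid, and the proteins in that layer decide how the droplet grows and when its fat is released. Perilipins cover the droplet and hold back the lipases until cyclic AMP signalling opens the coat. CIDE proteins gather where droplets touch and move lipid into the larger one, seipin helps to form droplets at the endoplasmic reticulum, and G0s2 binds and inhibits Pnpla2, the enzyme that cuts the first fatty acid from a triglyceride.

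The values turn on single 60-base probes, so the 4 whose letters are shown are those of the genes with the widest differences and of Plin5, whose probe was dim. They are written 5′ to 3′ in the order the files give, with no part set apart in capitals. The Cidec probe lay on rat chromosome 4 at 149309002-149314127 of build rn4, minus strand, and the first Cidea probe (A_43_P22556) on chromosome 18 at 63888076-63895390, plus strand. Both spans are far longer than 60 bases, so each of these probes bridges an intron. The Plin5 probe lay on unplaced sequence at 25680868-25680927 and the Hsd17b13 probe on chromosome 14 at 6915488-6915547, plus strand.
Cidec: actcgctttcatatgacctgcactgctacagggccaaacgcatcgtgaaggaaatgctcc
Cidea (A_43_P22556): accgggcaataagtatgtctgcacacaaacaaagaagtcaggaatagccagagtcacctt
Plin5: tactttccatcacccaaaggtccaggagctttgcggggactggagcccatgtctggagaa
Hsd17b13: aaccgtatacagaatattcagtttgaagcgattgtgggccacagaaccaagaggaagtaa

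Of the other probes, only that of Cideb spans more of the genome than its own length, 232 bases, and so bridges an intron too. The second Cidea probe (A_64_P156333) lay on chromosome 18 at 63896918-63896975, the Plin1 probe on chromosome 1 at 135497463-135497522, the Plin2 probe on chromosome 5 at 105718623-105718682, the Bscl2 probe on chromosome 1 at 211518909-211518968, the G0s2 probe on chromosome 13 at 109121388-109121447 and the Cideb probe on chromosome 15 at 33917058-33917289. Positions are the array maker's on rn4, and a genome of that build was not used here.

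The sequence upstream of the genes was read from RefSeq promoters of build GRCr8, which held an entry for each of the 10 genes (2 entries for Plin2, 5 for Plin4). Cidec and Hsd17b13 are printed, as the genes with the widest differences in each direction, as the 250 bases before the start of the transcript. Capitals mark matches, on either strand, to AGGTCA or GGGTCA (half-sites of nuclear receptors such as PPARγ), to a pair of AGGTCA half-sites 1 base apart, and to TTGCNNAA (C/EBP), AGAACA (half-site of the glucocorticoid receptor), TGACG (half-site of the cyclic AMP element), TATAAA and CCAAT. The paired motif contains the single half-site. The Cidec stretch is chromosome 4, 148137116-148137365, minus strand, and the Hsd17b13 stretch is chromosome 14, 6056539-6056788, plus strand.
Cidec: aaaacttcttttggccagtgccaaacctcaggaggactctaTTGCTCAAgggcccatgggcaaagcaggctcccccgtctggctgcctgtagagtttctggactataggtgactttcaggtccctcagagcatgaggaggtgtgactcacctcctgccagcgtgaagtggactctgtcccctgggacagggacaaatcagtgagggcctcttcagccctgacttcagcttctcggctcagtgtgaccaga
Hsd17b13: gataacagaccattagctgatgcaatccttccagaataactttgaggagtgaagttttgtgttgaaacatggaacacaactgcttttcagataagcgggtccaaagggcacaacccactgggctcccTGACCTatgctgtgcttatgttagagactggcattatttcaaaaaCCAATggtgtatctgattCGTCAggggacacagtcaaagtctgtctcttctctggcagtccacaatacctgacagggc

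The Cidec stretch held 1 marked site, a C/EBP match 209 bases before the start, a motif found in 9.22% of all 33469 promoters. The Hsd17b13 stretch held AGGTCA at 123, CCAAT at 78 and TGACG at 60 bases before the start, motifs found in 14.06%, 34.02% and 18.22% of all promoters. Among the other members, AGGTCA stood before Plin5 and Bscl2, GGGTCA (11.86% of promoters) before Cidea, TTGCNNAA and TGACG before Plin1, CCAAT before Plin1, Plin5 and Bscl2, and AGAACA (17.52%) before Bscl2 and the most downstream of the Plin4 starts. The paired AGGTCA half-sites (0.05%) and TATAAA (12.93%) were found before none of the 10 genes in this window. These letters describe the sequence and were not tested against the expression values.

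A level below is the log2 processed signal of a probe minus the 75th percentile of its array, so only differences between arrays, not between probes, can be read from it. The 75th percentile lay at 541.1 to 626.6 intensity units on CUS arrays and at 229.5 to 399.7 on control arrays. The 8 spike-in controls, RNAs meant to be added in equal amounts to every sample, differed by -0.05 on the log2 scale before this scaling and by -0.83 after it (p = 0.73 and p = 0.0043 in two-sided exact permutation tests of 6 arrays against 6). Scaling on the spike-ins in place of the 75th percentile therefore raised every difference, CUS minus control, by about 0.83 and the median over all 19728 tested probes to 0.81, against -0.02 under the 75th percentile. In bulk RNA a lower share of one cell type and less mRNA per cell cannot be told apart. The adipocyte genes Adipoq and Fabp4 were bright on all 12 arrays. Adipocyte markers had 5 of 14 tested genes higher in CUS and 3 lower (median 0.28), but 11 higher and 0 lower under spike-in scaling. Preadipocyte and fibroblast markers had 1 of 10 higher and 3 lower (median -0.78), but 4 higher and 0 lower under spike-in scaling. Over all tested probes 24.7% were higher and 25.4% lower. Of 8 brown or beige fat markers on the array 1 was tested, Cpt1b (0.80 higher in CUS, adjusted p = 0.0018). Ucp1 was well above background on 2 CUS arrays and 0 control arrays, and Ppargc1a on 0 CUS arrays and 1 control array. Red cell markers (6 of 6 tested genes higher in CUS, median difference 4.34), mast cell markers (8 of 9 higher, 2.69, but 5 higher and 1 lower with a median of 0.62 under normexp) and mesothelial markers (4 of 5 higher, 1.38, and 3 higher with 0.30 under normexp) moved with the group. The mast cell marker Cpa3 was well above background on 6 CUS arrays and 1 control array, so it entered the test only through the CUS group. Mcpt1, Ms4a2 and Fcer1a had lower control means (-6.95, -7.03 and -6.83) than Cpa3 (-5.61) and may have entered in the same way. The mesothelial marker Lrrn4 was also dim on control arrays (mean -5.02), and the same may hold for it. The mast cell count and median are therefore a description only. Endothelial markers (7 of 14 lower, median -0.48) were called lower in 12 of 14 without control replicate 3 and turned to a median of 0.35, with 1 higher and 1 lower, under spike-in scaling. Smooth muscle and pericyte markers (7 of 10 lower, -1.37) had 2 lower and 1 higher call and a median of -0.54 under spike-in scaling. Their part in the results on the droplet genes was not tested.

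**Figure D1:**
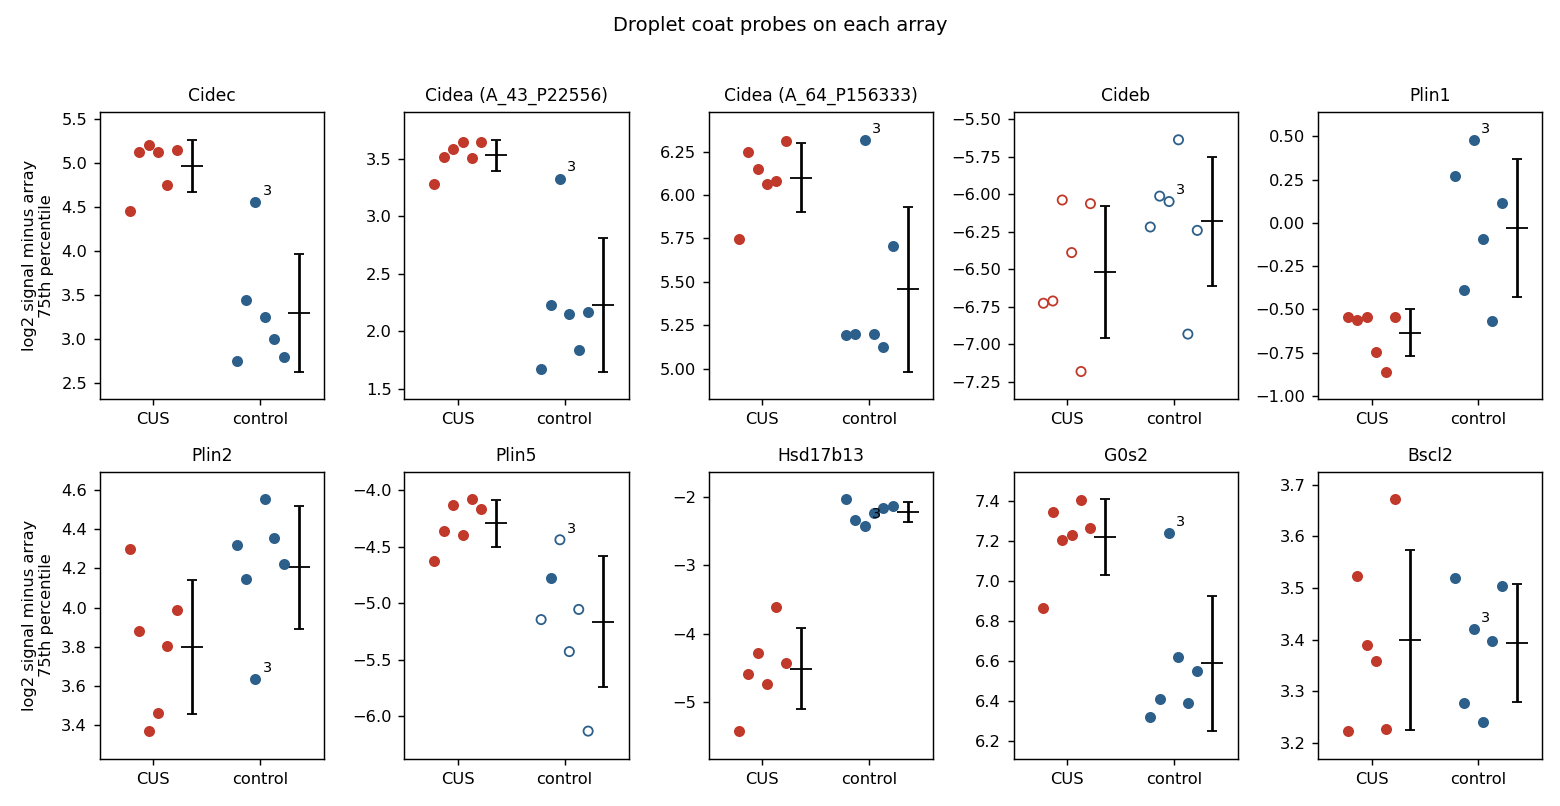
Log2 signal minus the 75th percentile of the array (y axis) for the 10 droplet coat probes, with 1 point for each of the 6 CUS arrays (left, red) and 6 control arrays (right, blue), open points where the probe was not well above background, and mean ± SD beside each group. The digit 3 marks control replicate 3, which sat among or near the CUS arrays for Cidec, both Cidea probes and G0s2, while the Hsd17b13 groups did not overlap.

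CUS adipocytes had more mRNA of the CIDE proteins Cidec and Cidea and of G0s2, and less of Hsd17b13 and Plin1, while Bscl2 and Plin2 did not pass the test, all relative to the 75th percentile of each array, with Plin1 turning its direction under spike-in scaling. Of the 7 tested probes that carried a listed symbol, 5 were called higher in CUS (limma, adjusted p under 0.05 over all 19728 tested probes), where 24.7% of all tested probes were, and 1 was called lower, where 25.4% were. With the Plin1 and Plin2 probes added, 5 of 9 were higher and 2 lower. The probe of Plin5 is among the 5, but it passed the background filter only through the CUS arrays, where its signal was higher, so its call supports no count. Where all 12 arrays had to be above background, Plin5 dropped out and the counts were 4 higher and 1 lower for the listed symbols, and 4 higher and 2 lower with Plin1 and Plin2. The median difference was 0.64 over the 7 probes and 0.64 without Plin5. At least a 2-fold difference in addition to that adjusted p was seen for Cidec and 1 Cidea probe upward, where 3.4% of all tested probes passed, and for Hsd17b13 downward, where 8.52% passed. The groups failed to overlap for 1 of the 9 probes, against 21.8% of all tested probes. With 50.1% of all tested probes called in 1 direction or the other, a call by itself sets no member apart from the array as a whole, and the sizes and array values below carry more.

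Cidec is the CIDE protein of white fat, where it is needed for the single large droplet. Its level was 4.46 at the lowest, 5.12 at the median and 5.20 at the highest on the 6 CUS arrays, against 2.76, 3.13 and 4.55 on the 6 control arrays. Of the CUS arrays, 5 lay above all control arrays, and only CUS replicate 1 fell below the highest control array, which was replicate 3. The means were 4.96 ± 0.30 in CUS and 3.30 ± 0.67 in control (SD, n = 6 each), a difference of 1.67 (SE 0.27, limma adjusted p = 0.00043), or 3.17-fold with a 95% confidence interval of 2.11 to 4.77. Only 3.1% of the tested probes differed by more in either direction. Without control replicate 3 the difference was 1.92 (adjusted p = 6.7e-06), and with spike-in scaling it was 2.50 (adjusted p = 8.5e-06).

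Cidea, best known from brown fat in mice and also present in human white fat, was read by both of its probes. Probe A_43_P22556 had 3.28, 3.55 and 3.65 as lowest, median and highest level in CUS, against 1.68, 2.15 and 3.33 in control. All control arrays but replicate 3 lay below every CUS array, and the difference was 1.30 (SE 0.22, adjusted p = 0.00062), or 2.46-fold. Probe A_64_P156333 had 5.75, 6.12 and 6.31 in CUS, against 5.12, 5.20 and 6.32 in control. Here control replicate 3 was the highest of all 12 arrays and the other 5 control arrays were again below every CUS array. The difference was 0.64 (SE 0.19, adjusted p = 0.016), or 1.56-fold. The probes thus gave the same direction but not the same size: the log2 ratio of the first to the second probe on the same array was -2.57 ± 0.12 in CUS and -3.23 ± 0.26 in control (SD, n = 6 each), a difference of 0.66 with no overlap (exact permutation test, two-sided, p = 0.0022, the smallest p that 6 against 6 arrays can give). With spike-in scaling the Cidea differences were 2.13 and 1.47.

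Cideb, the CIDE protein of liver and gut, was not well above background on any of the 12 arrays and was not tested. Its probe read -6.52 ± 0.44 in CUS and -6.18 ± 0.43 in control (SD, n = 6 each).

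Plin1, the main coat protein of white adipocytes and the target of protein kinase A on the droplet, had levels of -0.86, -0.55 and -0.54 as lowest, median and highest in CUS, against -0.57, 0.01 and 0.48 in control. The CUS arrays lay close together and 5 of the 6 control arrays were above all of them, control replicate 5 being the exception. All of this rests on 1 probe, matched by synonym only. It read 323.1 to 384.3 intensity units in CUS and 253.3 to 401.6 in control before scaling. How well the probe reads Plin1 mRNA was not tested. The difference was -0.60 (SE 0.16, adjusted p = 0.0091), which turned to 0.23 (adjusted p = 0.26) with spike-in scaling. Relative to the median of all tested probes it was -0.58 under both scalings. That match is fixed in advance, since each of them subtracts 1 value per array. With normexp correction the difference was -0.54 (adjusted p = 0.0024), and -0.36 relative to that median.

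Plin2, the perilipin of small droplets in many tissues, had 3.37, 3.84 and 4.30 in CUS, against 3.63, 4.27 and 4.55 in control. The groups overlapped broadly. The difference of -0.40 (SE 0.18, 95% confidence interval -0.79 to -0.02) had an adjusted p of 0.075, and turned to 0.43 (adjusted p = 0.18) with spike-in scaling. In the authors' quantile normalised table it was -0.53 and passed the test (adjusted p = 0.043), and it also passed without control replicate 3 (-0.52, adjusted p = 0.013) and without CUS replicate 1 (-0.50, adjusted p = 0.028).

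Plin5, the perilipin of tissues that burn fat, such as heart and brown fat, gave a dim signal of 22.0 to 34.6 intensity units on CUS arrays and 5.29 to 14.6 on control arrays. Its probe was well above background on 6 CUS arrays and on 1 control array, so it entered the test only through the CUS group, and on 5 control arrays its level is close to background. The level was -4.63, -4.26 and -4.08 as lowest, median and highest in CUS, against -6.13, -5.10 and -4.44 in control, and 5 of the 6 CUS arrays lay above all control arrays. The difference was 0.87 (SE 0.23), given as a description, and with normexp background correction of the mean signal (offset 50) it turned to -0.32. The direction for Plin5 therefore depends on the processing. The normexp setting changes the background and also adds the offset before the array is scaled, and which of these turned the direction was not tested.

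Hsd17b13, a hydroxysteroid dehydrogenase that settles on droplets and is best known from the human liver, was the member whose groups did not overlap. Its level was -5.42, -4.51 and -3.61 as lowest, median and highest in CUS, against -2.42, -2.20 and -2.04 in control. The means were -4.51 ± 0.59 in CUS and -2.22 ± 0.14 in control (SD, n = 6 each), so that the spread lay on the CUS side, unlike that of Cidec and Cidea. The difference was -2.29 (SE 0.23, adjusted p = 1.5e-05), 4.89-fold lower in CUS, and 0.988% of the tested probes differed by more. The probe was dim, with 12.7 to 47.9 intensity units in CUS and 42.9 to 84.6 in control, but well above background on all 12 arrays. The difference kept its direction but shrank to -1.32 with normexp correction (adjusted p = 2.2e-07) and to -1.46 with spike-in scaling (adjusted p = 0.00077). Under normexp the median over all tested probes was -0.18, and relative to it Hsd17b13 was at -1.14. Of 9 hepatocyte markers on the array, 1 was tested: Alb, higher in CUS by 0.79 (adjusted p = 0.022). The hepatocyte factor Hnf4a was well above background on 0 CUS arrays and 5 control arrays, which kept it under the 6 arrays needed for a test.

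G0s2 had 6.86, 7.24 and 7.40 as lowest, median and highest level in CUS, against 6.32, 6.48 and 7.24 in control. All control arrays but replicate 3 were below every CUS array. The difference was 0.63 (SE 0.15, adjusted p = 0.0048), or 1.55-fold, and no spot of the probe was saturated. It was 0.76 without control replicate 3 (adjusted p = 8.9e-05) and 1.46 with spike-in scaling.

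Bscl2, the seipin gene whose loss in humans and mice leaves almost no fat tissue, had 3.22, 3.37 and 3.67 in CUS, against 3.24, 3.41 and 3.52 in control. The difference was 0.01 (SE 0.10, adjusted p = 0.97), and its 95% confidence interval of -0.20 to 0.21 bounds a change in either direction at about 1.16-fold. With spike-in scaling, which adds the shift of the whole array, it was 0.83 (adjusted p = 0.0027).

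**Figure D2:**
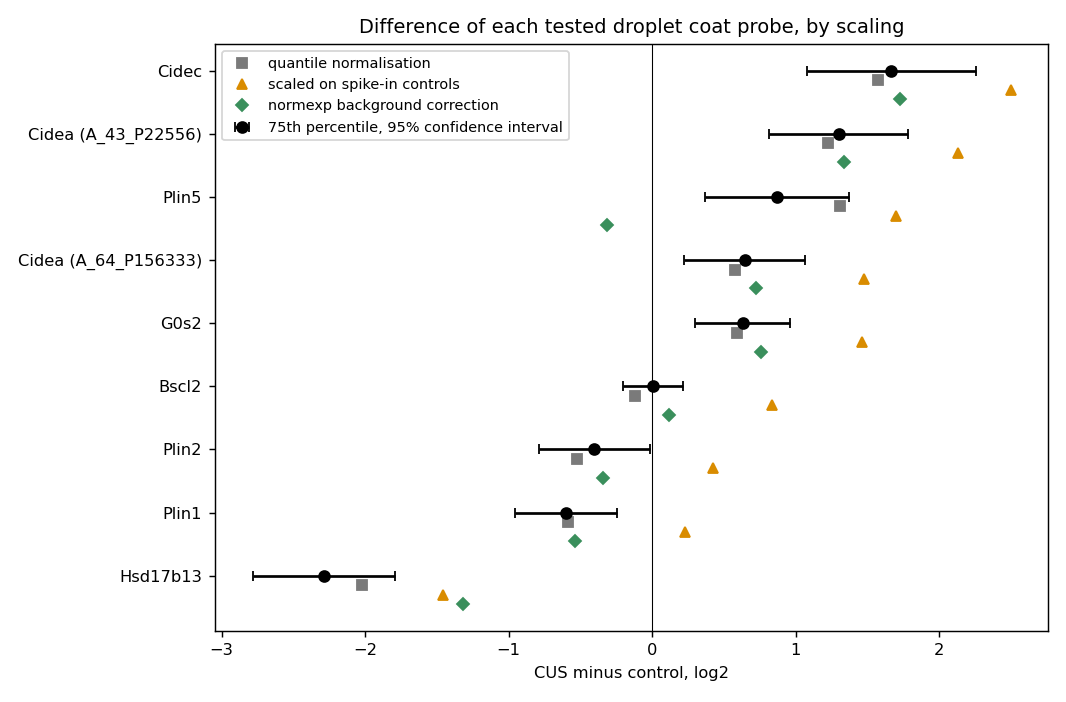
Difference CUS minus control on the log2 scale (x axis) for the 9 tested droplet coat probes (y axis), as black points with 95% confidence intervals under 75th percentile scaling, and as single points under quantile normalisation, spike-in scaling and normexp background correction. Plin1 and Plin2 cross 0 only with spike-in scaling and Plin5 only with normexp, while Cidec, both Cidea probes, G0s2 and Hsd17b13 stay on 1 side.

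A ratio between 2 probes on the same array is the same whichever single value the array is scaled by (75th percentile, median or spike-ins), though not under quantile normalisation. All 36 pairs of the 9 tested probes were compared by an exact permutation test, two-sided, with Benjamini-Hochberg adjustment over the 36. The ratio passed in 30 pairs, all 30 also at an unadjusted p under 0.05 (83.3%), where 56.6% of 1945378 pairs among every 10th tested probe did. In 18 pairs the groups did not overlap, where 24.1% of those pairs did not. Pairs share probes and are not independent, and whether the shares differ was not tested. The counts include the pairs of Plin5, which entered only through the CUS arrays, and the pair of the 2 Cidea probes. Plin5 passed with Hsd17b13, Plin1, Plin2, Bscl2 and Cidec, and did not overlap with Hsd17b13 and Plin1. Both counts are therefore a description only. The log2 ratio of Cidec to Hsd17b13 moved furthest, with 9.47 ± 0.57 in CUS and 5.52 ± 0.80 in control (SD, n = 6 each), a difference of 3.96 (exact permutation p adjusted over the pairs = 0.0043). The log2 ratio of Plin1 to Cidec, read by 1 probe each, was -5.60 ± 0.31 in CUS and -3.33 ± 0.63 in control. The difference was -2.27 (adjusted exact p = 0.0043), and CUS arrays ran from -5.87 to -5.00 against -4.07 to -2.49 on control arrays. Plin1 relative to Bscl2 differed by -0.61 (adjusted exact p = 0.011), and Cidec relative to Bscl2 by 1.66 (adjusted exact p = 0.0043). Cidec also gained on its relative Cidea, by 0.37 against probe A_43_P22556 (adjusted exact p = 0.012) and by 1.02 against probe A_64_P156333 (adjusted exact p = 0.0043). The 6 pairs that did not pass were Plin1 with Plin2 (-0.20), Plin2 with Bscl2 (-0.41), G0s2 with Cidea probe A_64_P156333 (0.01, Cidea over G0s2), and Plin5 with either Cidea probe and with G0s2. The ratios with Plin5 and Hsd17b13 still carry the background correction of these dim probes.

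**Figure D3:**
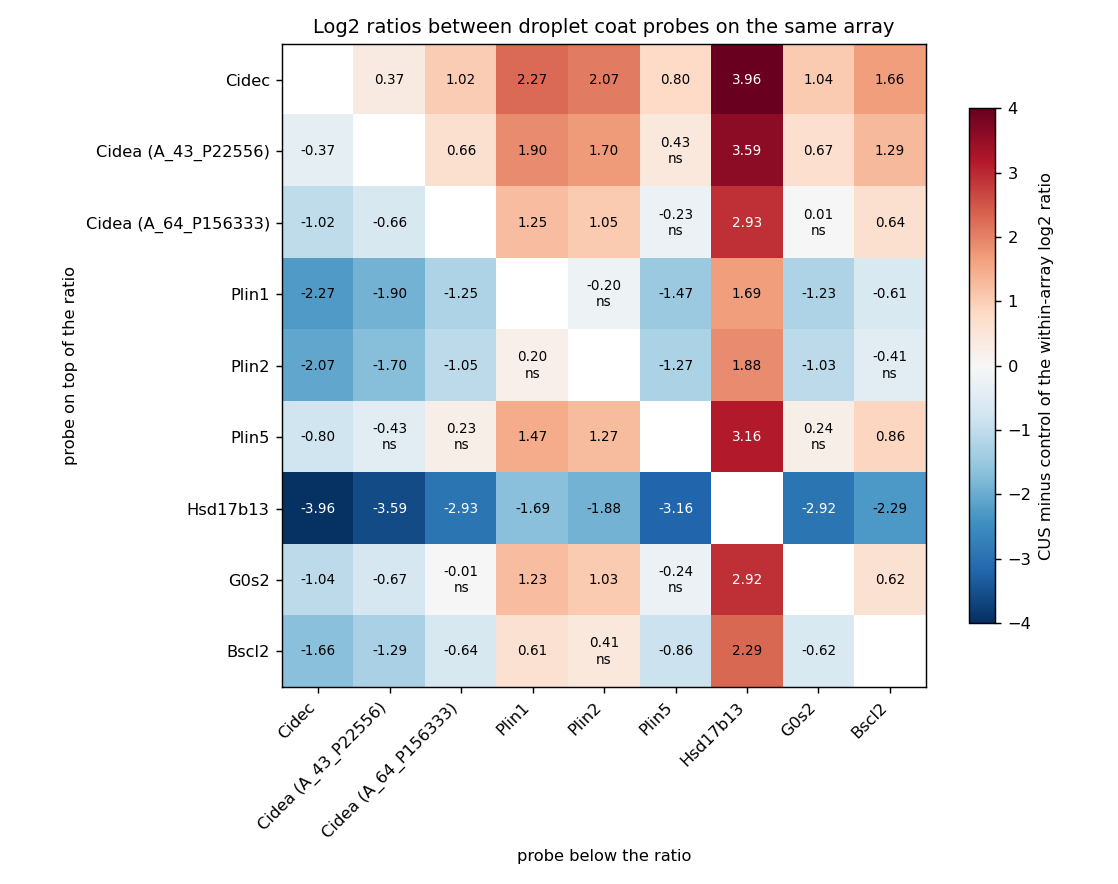
Difference, CUS minus control, of the log2 ratio of the row's probe to the column's probe on the same array, for the 9 tested droplet coat probes, with red for a ratio higher in CUS and ns for pairs that did not pass the exact permutation test after adjustment over 36 pairs. The Hsd17b13 column is red and the Plin1 and Plin2 columns are red against Cidec, both Cidea probes, Plin5, G0s2 and Bscl2.

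The values of control replicate 3 need to be read beside its cell type markers and its low signal. Its 75th percentile was 229.5 intensity units, against 303.8 to 399.7 on the other control arrays, and its 60.4% of probes well above background was the lowest share. After scaling, it was the highest control array for 6 of the 9 tested probes, among them Cidec (4.55), both Cidea probes, Plin5, G0s2 and Plin1, and the lowest for Plin2 and Hsd17b13. Before scaling, it was the highest control array for Cidec and Cidea probe A_43_P22556, but not for Cidea probe A_64_P156333, Plin5, G0s2 or Plin1. It also had the lowest endothelial marker mean of the control arrays, -0.64 against 0.84 to 1.23 on the other 5, the lowest smooth muscle and pericyte mean, -1.18 against 0.45 to 1.31, and the highest adipocyte mean, 4.83 against 4.02 to 4.19. On the CUS side, replicate 1 was the lowest for 7 of the 9 probes and had the highest endothelial (0.36, against -0.60 to 0.23) and smooth muscle (-0.10, against -1.34 to -0.62) means of its group. For Hsd17b13, control replicate 3 at -2.42 stayed with its group. Without control replicate 3, the member calls were the same for the 7 probes with listed symbols, and Plin2 became the third probe called lower. The means of the red cell and mesothelial markers separated all CUS arrays from all control arrays. So did the mean of the mast cell markers, among which Cpa3 entered only through the CUS arrays and Mcpt1, Ms4a2 and Fcer1a may have. The red cell mean was 4.96 to 5.75 on CUS arrays, against 0.29 to 1.18 on control arrays, and the mesothelial mean was -1.38 to -0.83, against -3.06 to -1.46. What these cells contributed to the droplet gene values was not tested.

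**Figure D4:**
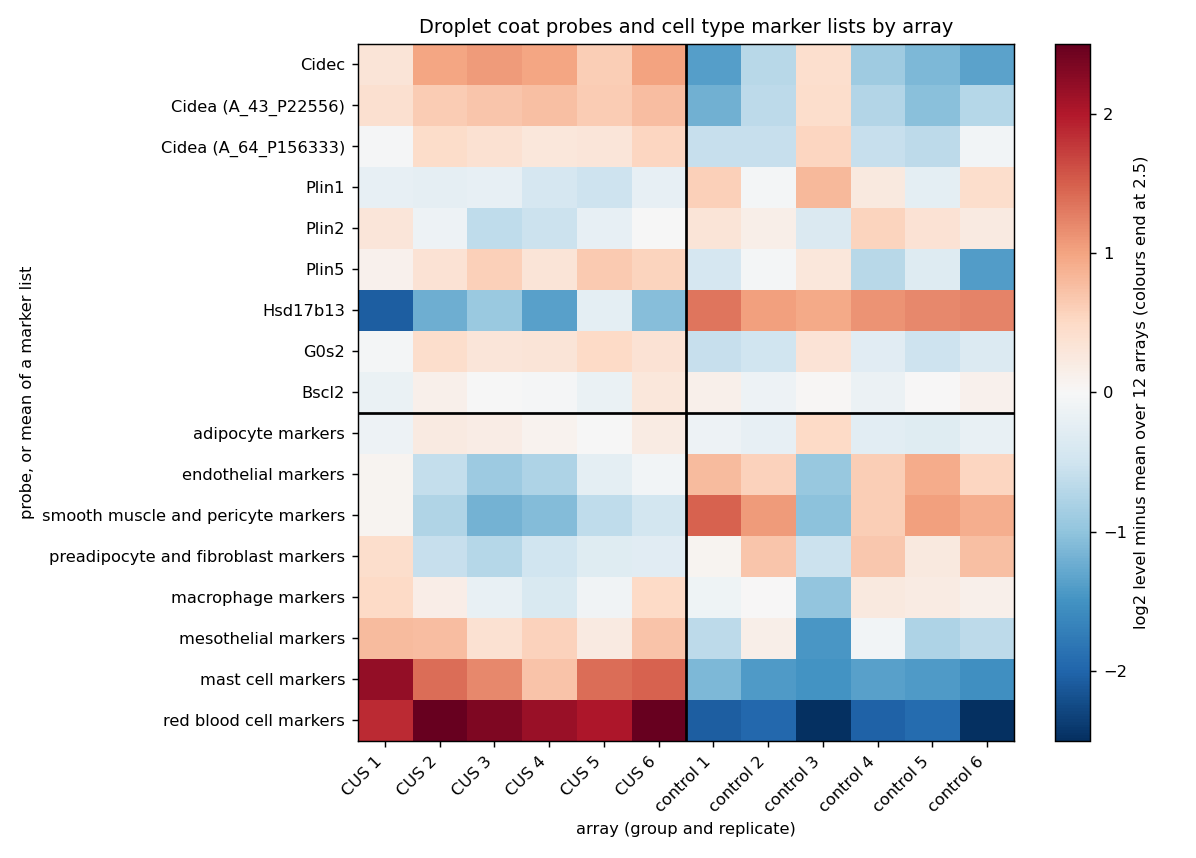
Level of each tested droplet coat probe (upper rows) and mean level of 8 cell type marker lists (lower rows) on each of the 6 CUS arrays (left) and 6 control arrays (right), as the log2 difference from the mean of the 12 arrays. Control replicate 3 is red for Cidec, Cidea and G0s2 and blue for endothelial and smooth muscle markers, and the red cell row splits all CUS from all control arrays.

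For Cidec, Plin1 and Hsd17b13 the genes with the nearest profile over the 12 arrays were sought, by the root mean square difference of log2 levels after each gene was centred on its mean. Nearest to Cidec were Atp5f1b, a subunit of mitochondrial ATP synthase (0.17), Gulo, the last enzyme of vitamin C synthesis in rats (0.18), and Agpat2, which makes phosphatidic acid for triglyceride (0.18), with differences of 1.52, 1.85 and 1.50, CUS minus control. Nearest to Plin1 were Fam163b, the chloride transporter Clcn7 and the cell cycle inhibitor Cdkn2a, at distances of 0.14, 0.14 and 0.15. Nearest to Hsd17b13 were an unnamed transcript of the array (TC603124, 0.26), the autophagy gene Uvrag (0.29) and a probe without a gene name (A_64_P137554, 0.30). None of the 9 was a droplet coat gene.

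The genes around the coat were taken from lists and described by counts, beside 24.7% higher and 25.4% lower over all tested probes. Of 11 tested genes of triglyceride and phospholipid assembly, 9 were higher in CUS and 1 lower, with a median difference of 0.59. Agpat2 had 1.29, 1.58 and 1.86 as lowest, median and highest level in CUS, against -0.65, 0.13 and 1.19 in control, and Dgat2, which adds the last fatty acid of a triglyceride, differed by 1.11 (adjusted p = 0.00015). Lpin3, a phosphatidate phosphatase, was lower by 1.08 on the log2 scale (adjusted p = 0.00039), though only by 0.25 with spike-in scaling, where it did not pass. With spike-in scaling no tested gene of the 6 lists was called lower. The counts called higher were then 10 of 11 for triglyceride and phospholipid assembly, 6 of 7 for lipases and cofactors, 7 of 7 for regulators, 20 of 22 for other droplet proteins, 9 of 10 for the cyclic AMP list and 5 of 6 for caveolae, beside 12645 of all 19728 tested probes.

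Among 7 droplet lipases and cofactors, 2 were higher in CUS, 1 lower and 4 not called. The higher ones were Mgll, monoacylglycerol lipase (0.74, adjusted p = 0.00032), and Abhd5, the coactivator of Pnpla2 that Plin1 holds on the resting droplet (0.72, adjusted p = 0.00093). Abhd5 levels were -0.72 to -0.28 in CUS, against -1.56 to -0.81 in control, with no overlap. Lysosomal Lipa was lower by 0.63 on the log2 scale (adjusted p = 0.0056), but higher by 0.20 with spike-in scaling, where it did not pass (adjusted p = 0.55). Pnpla2 itself, the target of G0s2, differed by 0.40 (adjusted p = 0.072). Hormone-sensitive lipase, Lipe, differed by -0.02 at its brightest probe (adjusted p = 0.92), while the other of its 2 tested probes was called lower in CUS. Without control replicate 3, 5 of the 7 were called higher.

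Of 7 tested regulators known to act on coat genes, 4 were higher in CUS and none lower, with a median of 0.52. The highest differences among those called were those of Cebpa (0.57, adjusted p = 0.013) and Ppard (0.53, adjusted p = 0.034, but -0.13 with normexp, adjusted p = 0.31). The other of the 2 tested Ppard probes was not called. Pparg, the fat cell receptor whose targets include Cidec and Plin1, differed by 0.52 (adjusted p = 0.0023).

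Of 22 other droplet and droplet assembly proteins, 10 were higher, 2 lower and 10 not called, with a median of 0.30. Mettl7b, a droplet-associated methyltransferase family member, differed by 1.64 and the retinol dehydrogenase Rdh10 by 0.66 (adjusted p = 0.0015), and both dim probes turned to -0.11 and -0.05 with normexp correction. Mettl7b read -6.42 to -4.54 on control arrays, beside -6.13 to -4.44 for Plin5, and may have entered the test only through the CUS arrays. Its difference and its place among the 10 are therefore a description only. Fitm1, which helps to bud droplets in muscle, was lower by 0.87 on the log2 scale (adjusted p = 0.0006). With spike-in scaling its difference was -0.04 and did not pass (adjusted p = 0.89). Vps13c, a lipid transfer protein, was lower by 0.54 on the log2 scale (adjusted p = 0.00099), but higher by 0.29 with spike-in scaling (adjusted p = 0.28). Plin3, the perilipin that is found in nearly all cells, differed by 0.08 (adjusted p = 0.49).

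Of 10 tested genes of the cyclic AMP arm that opens the coat, 2 were higher and 1 lower at their brightest probes. Gnas was not called there (adjusted p = 0.26), while the other of its 2 tested probes was called lower in CUS. Adrb3, the adrenergic receptor of fat cells, differed by 0.34 (adjusted p = 0.032, and 0.092 after quantile normalisation), Gnai1, an inhibitory G protein subunit, by 0.73 (adjusted p = 0.041, but 0.14 with normexp, adjusted p = 0.44) and the kinase subunit Prkacb by -0.49 (adjusted p = 0.035, and 0.16 after quantile normalisation), the last turning to 0.34 with spike-in scaling (adjusted p = 0.21). Of 6 tested genes of caveolae, the membrane pits that cover the fat cell surface, 1 was higher (Ehd2, 0.50, adjusted p = 0.012) and none lower. Pacsin2 was not called at its brightest probe (adjusted p = 0.57), while the other of its 2 tested probes was called higher in CUS. Without control replicate 3 the counts were 5 higher and 1 lower for the cyclic AMP list and 2 higher and 1 lower for caveolae.

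**Figure D5:**
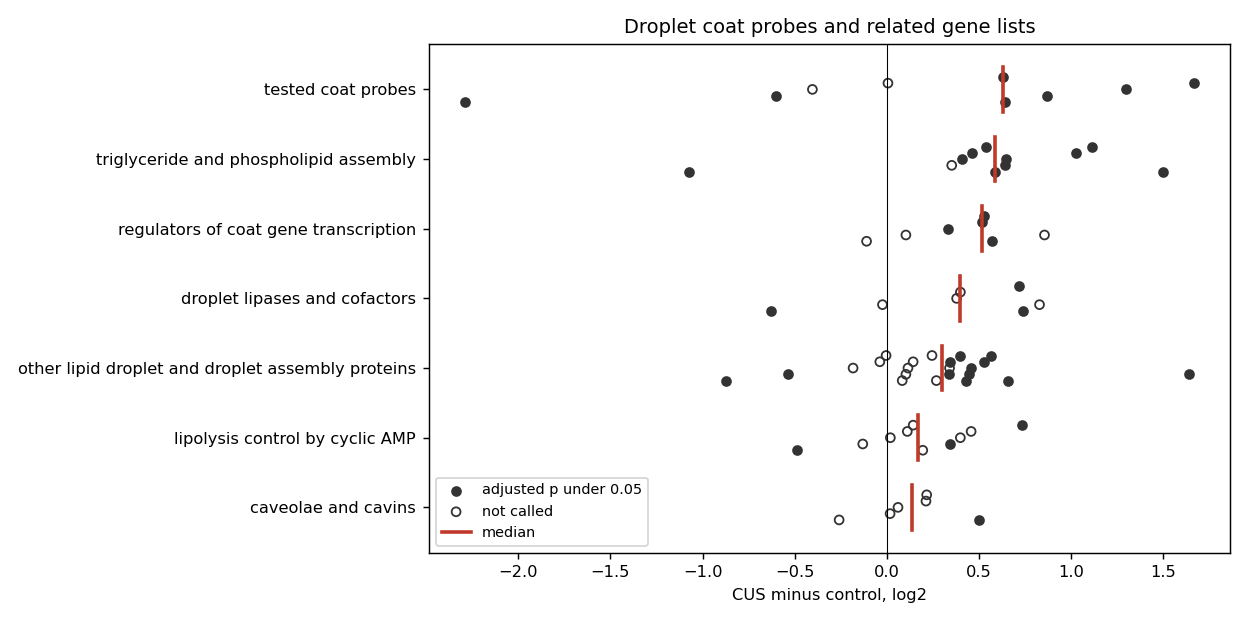
Difference CUS minus control on the log2 scale (x axis) for the 9 tested droplet coat probes and for each tested gene of 6 related lists (y axis), with filled points for adjusted p under 0.05, open points for genes not called and a red bar at the median. The coat probes spread from -2.29 to 1.67, further than each of the 6 lists.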

How the data were processed

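Adipocyte RNA of 12 rats was hybridised to 12 one-colour Agilent arrays. The deposited scanner files hold spot intensities that Agilent Feature Extraction 10.7.3.1 had background-subtracted, with no scaling between arrays; the authors' value table holds linear intensity values that were quantile normalised (median 46.724 on each array), used as an alternative. The methods name a t-test with a 2-fold limit and an exon array, whereas the design of the deposited files is a gene expression array. Control spots and outlier-flagged spots were dropped, replicate spots were averaged as log2 of the deposited processed intensity, and the 75th percentile of each array was subtracted. The 19728 of 30367 probes that stood well above background on 6 or more of the 12 arrays were tested with limma 3.58.1 in R 4.3.3, and p-values were adjusted over these probes by Benjamini-Hochberg. In a simulation of this comparison with 200 of 19728 probes changed, 11 of 73 were called at a log2 change of 0.5, 53 of 67 at 1 and 59 of 60 at 2, with 8 false calls. In the data 50.1% of tested probes were called, a far larger share, so these rates do not carry over to the data. Current symbols came from RefSeq through accession (17514 probes), symbol (2669), synonym (689) or a further accession (216). The members and gene lists were chosen with earlier results of these data known. Named were each member probe, of each list up to 2 genes called highest and 2 called lowest by their brightest tested probe, and the 3 nearest profiles of Cidec, Plin1 and Hsd17b13. Pnpla2, Lipe, Pparg, Plin3, Gnas and Pacsin2, and the markers Mcpt1, Ms4a2, Fcer1a and Lrrn4, were named in addition, after their values were seen. The comparison of member pairs with pairs among every 10th tested probe was also added after the data were seen. The paper states that rats were kept in pairs and that overnight crowding in 1 cage was among the stressors. It does not say which of these rats shared a cage or were prepared together. Rats of a group may therefore not be independent, and p-values measure the spread between these arrays only. The number of arrays limits the precision.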

Additional observations from a re-analysis of the deposited data

Results flagged for a closer look

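In each group of 6 arrays the highest and the lowest value of each tested droplet coat probe was checked against the rest by Dixon's gap criterion (0.625 for 6 values), in 18 groups, of which chance flags about 1 in 20. G0s2 on CUS replicate 1 (6.86) lay below the other 5 CUS arrays, the nearest of which was 7.20. On control replicate 3, Cidea probe A_43_P22556 (3.33) lay above the other 5 control arrays, the nearest of which was 2.23. G0s2 on the same array (7.24) was also apart from its group, whose next value was 6.62. Before scaling, its intensity on that array was 34657, beside 34792 on control replicate 6.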

How the results depend on the processing

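Cidec, Cidea probe A_43_P22556 and Hsd17b13 kept their direction and their call under all 24 alternatives, with differences of 1.56 to 2.50, 1.19 to 2.13 and -2.47 to -1.32. Cidea probe A_64_P156333 (0.58 to 1.47) and G0s2 (0.58 to 1.46) lost their call only to the 2-fold limit of the methods' t-test. Of 215 single-probe comparisons with an alternative, 195 kept direction and call. Plin5 reversed with normexp (-0.32), Plin1 (0.23) and Plin2 (0.43) with spike-in scaling. Bscl2, near 0, reversed with quantile normalisation (-0.12) and the authors' table (-0.12), and lay between -0.049 and 0.041 when each array was left out, below 0 without CUS replicate 2 or 6 and without control replicate 2 or 4. The cause was not tested. With normexp, 2 listed-symbol probes and 8871 of all probes were lower in CUS. With spike-in scaling, the median over the listed-symbol probes was 1.47, 12645 of all probes were higher and 477 lower, and with the Plin1 and Plin2 probes 1 was lower. Without the filter on dim probes, 12867 of all probes were lower. The methods' t-test with the 2-fold limit called 2 listed-symbol probes higher (2 higher and 1 lower with the Plin1 and Plin2 probes), and 670 of all probes higher and 1688 lower. Leaving out 1 array gave 2 to 3 lower calls with the Plin1 and Plin2 probes, 4236 to 5849 higher and 4346 to 5903 lower calls over all probes. With the replicate number as a block, Plin2 also passed (adjusted p = 0.043) and calls over all probes were 4971 higher and 5364 lower. The numbers come from the labels only, the correlations of same-numbered deviations ran from -0.19 to 0.43, and they were not taken as pairs. Plin5 was not tested where all 12 arrays had to be above background. Slide could not be fitted as a block, since each slide held 1 group.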
